A study of Homo sapiens with 4 samples.

Results

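A panel of 9 genes that mark hepatocytes and liver tumours is described here in 4 RNA-seq libraries of hepatocellular carcinoma (HCC) cells: ALB, TTR, RBP4, AFP, GPC3, AHSG, SERPINA1, AMBP and FGL1. They were chosen by name, with earlier results of these data known, and all 9 were found among the 59652 genes of the count table. Huh7 and PLC are established HCC cell lines, wild type per the labels, and each was grown with 5 mM (low-glucose) or 25 mM (high-glucose) glucose added to glucose-free medium with serum for 48 h. The 4 combinations of line and glucose are represented by 1 library each. No condition has a replicate, the lines were derived from different tumours, and p-values measure only the spread between these 4 libraries around an additive fit of line and glucose.

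The deposited values are numbers of reads counted on each gene, between 16049686 and 30279716 in all per library. Levels are given as FPKM, which are reads scaled to the length of the gene and to the library total, and only FPKM was used to compare different genes. A floor of 3 reads corresponds to 0.0991 to 0.187 CPM (counts scaled to the library total alone) in these libraries. Intervals of ratios are exact 95% intervals that cover counting error only, so they compare libraries and not conditions. In bulk RNA, fewer cells that express a gene and less RNA of it per cell cannot be told apart.

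Hepatocytes make most of the proteins of blood plasma, and the 9 genes encode members of that secretome or proteins known from liver tumours. Albumin (ALB) carries fatty acids, hormones and drugs, transthyretin (TTR) carries thyroxine and binds retinol-binding protein (RBP4), and RBP4 carries vitamin A out of the liver. Alpha-fetoprotein (AFP) is the albumin-like protein of the fetus, is shut down after birth, and serves as a serum marker of HCC. Glypican-3 (GPC3) is a heparan sulphate proteoglycan of the cell surface that is also fetal and returns in HCC.

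ALB and AFP are neighbours on chromosome 4, with 9655 bases between them in the gene models of the table. RefSeq promoter windows on GRCh38.p14 were at hand for 6 of the 9 genes. The 4 shown are those of the neighbours ALB and AFP, of AMBP, the gene whose level differed least between the lines, and of AHSG, which had next to no reads in PLC. Each runs 5′ to 3′ on the strand of its gene from 200 bases before the RefSeq start, and bases that belong to an annotated exon were left off. Capitals mark 2 motifs searched on both strands, the TATA box, spelled TATAAA, and the box named for its letters CCAAT. On the opposite strand the latter reads ATTGG. The windows are chr4:73404087-73404254 on the plus strand for ALB, chr4:73436021-73436220 on the plus strand for AFP, chr9:114078329-114078500 on the minus strand for AMBP and chr3:186612860-186613059 on the plus strand for AHSG.
ALB: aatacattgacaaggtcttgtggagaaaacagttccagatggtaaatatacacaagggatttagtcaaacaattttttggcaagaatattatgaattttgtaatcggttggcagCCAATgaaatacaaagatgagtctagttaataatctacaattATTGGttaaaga
AFP: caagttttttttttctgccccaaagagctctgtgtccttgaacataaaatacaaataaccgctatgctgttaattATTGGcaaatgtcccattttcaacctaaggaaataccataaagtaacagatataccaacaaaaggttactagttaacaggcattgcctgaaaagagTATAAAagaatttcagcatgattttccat
AMBP: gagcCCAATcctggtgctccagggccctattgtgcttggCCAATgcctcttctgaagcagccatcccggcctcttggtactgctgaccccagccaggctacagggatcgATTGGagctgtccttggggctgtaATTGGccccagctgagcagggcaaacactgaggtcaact
AHSG: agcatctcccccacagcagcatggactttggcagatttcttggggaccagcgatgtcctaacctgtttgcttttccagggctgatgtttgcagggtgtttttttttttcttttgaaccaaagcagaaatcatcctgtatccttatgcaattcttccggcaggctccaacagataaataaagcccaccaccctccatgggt

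In 250 bases before the start, CCAAT was found in 4 of the 6 genes with a window (ALB, AFP, AMBP and RBP4) and in 32.0% of all 35116 windows of this length. TATAAA was found in 2 (AFP and RBP4) against 10.7%. ALB holds CCAAT 86 to 82 bases before the start and again, on the other strand, at 44 to 40 bases. In AFP, CCAAT lies on the other strand at 125 to 121 bases, and TATAAA lies at 29 to 24 bases. The AHSG window holds neither motif as spelled here. A gene with several starts, such as RBP4, had several windows. The 6 genes had 9 windows in all, and a gene was counted if any of its windows held the motif. The percentages are shares of single windows, so the 2 are not like measures. These are matches of letters and not sites of binding.

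ALB was the gene with the second highest FPKM of the 19161 protein-coding genes in both Huh7 libraries. Its level was 2017 FPKM at 5 mM and 2039 FPKM at 25 mM in Huh7 cells, and 52.4 and 72.3 FPKM in PLC cells. The lines do not overlap, and ALB was 38.5-fold higher in Huh7 than in PLC at 5 mM (interval 37.4 to 39.5) and 28.2-fold higher at 25 mM (27.3 to 29.1). In the edgeR fit over all genes, the difference between lines was 5.04 on the log2 scale (SE 0.20, adjusted p = 2.24e-09).

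TTR and RBP4, which travel together in plasma, were both close to absent from PLC cells. TTR had 39.5 and 39.7 FPKM in Huh7 cells at 5 and 25 mM, on 1839 and 2599 reads, against 4 reads and 0 reads in PLC cells. It was 651-fold higher in Huh7 at 5 mM (254 to 2393, on 4 reads in PLC) and at least 462-fold higher at 25 mM, with the PLC library set at the floor of 3 reads. The exact interval of that ratio, which allows for error in both directions, starts at 376. RBP4 had 492 and 517 FPKM in Huh7 cells and 1.13 and 0.684 FPKM in PLC cells, the latter on 50 and 16 reads. RBP4 was thus 435-fold higher in Huh7 at 5 mM (330 to 586) and 756-fold higher at 25 mM (465 to 1322). Within Huh7 cells, the level of RBP4 was 12.5 times that of TTR at 5 mM and 13.01 times at 25 mM.

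Of the oncofetal genes, AFP was high in all 4 libraries. It had 1256 FPKM (5 mM) and 1434 FPKM (25 mM) in Huh7 cells and 306 and 1011 FPKM in PLC cells. AFP ranked 4 and 6 among protein-coding genes in Huh7, and moved from rank 36 at 5 mM to rank 4 at 25 mM in PLC. The difference between lines was 4.10-fold at 5 mM (4.05 to 4.15) but 1.42-fold at 25 mM (1.40 to 1.43). In the fit, AFP was higher in Huh7 by 1.26 on the log2 scale (SE 0.27, adjusted p = 0.00187). That call was lost when glucose was left out of the model (adjusted p = 0.123) and, in that model, also without the Huh7 library at 5 mM (0.0572) or without the one at 25 mM (0.121).

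GPC3 had 196 and 185 FPKM in Huh7 cells and 28.2 and 21.3 FPKM in PLC cells. It was 6.97-fold higher in Huh7 at 5 mM (6.67 to 7.28) and 8.70-fold higher at 25 mM (8.15 to 9.29), with a fitted difference of 2.95 on the log2 scale (SE 0.22, adjusted p = 2.65e-07). Unlike AFP, it was well below its Huh7 level in both PLC libraries.

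AHSG encodes fetuin-A, which keeps calcium phosphate soluble in plasma. Its level was 284 and 232 FPKM in Huh7 cells and 0.373 and 0.253 FPKM in PLC cells, on 25 and 9 reads. The ratio of Huh7 to PLC was 763 at 5 mM (517 to 1180) and 917 at 25 mM (483 to 2007). Its interval overlaps those of TTR and RBP4 at both glucose concentrations. TTR, RBP4 and AHSG are thus the genes of the panel with next to no reads in PLC cells.

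SERPINA1 encodes alpha-1-antitrypsin, the main inhibitor of neutrophil elastase. It had 235 and 261 FPKM in Huh7 cells and 22.1 and 51.8 FPKM in PLC cells. The ratio of Huh7 to PLC was 10.6 at 5 mM (10.3 to 11.03) and 5.03 at 25 mM (4.87 to 5.19). FGL1, a protein of the fibrinogen family secreted by hepatocytes and a ligand of the immune receptor LAG3, had the lowest levels in Huh7, 17.1 FPKM in each library. FGL1 stood at 1.62 and 3.45 FPKM in PLC cells, which made it 10.5-fold higher in Huh7 at 5 mM (8.93 to 12.5) and 4.96-fold higher at 25 mM (4.26 to 5.81). Of the exonic bases of FGL1, 4.15% also belong to a gene on the opposite strand, and no exonic base of the other 8 genes is shared.

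AMBP was the exception of the panel. The gene encodes the precursor of alpha-1-microglobulin, a haem-binding protein, and of bikunin, a protease inhibitor. It had 585 and 506 FPKM in Huh7 cells and 459 and 450 FPKM in PLC cells, between rank 17 and rank 25 among protein-coding genes in every library. AMBP was 1.27-fold higher in Huh7 at 5 mM (1.25 to 1.30) and 1.12-fold higher at 25 mM (1.10 to 1.15). The fitted difference of 0.25 on the log2 scale (SE 0.18) did not pass the test (adjusted p = 0.282), nor did it in any of the other 11 settings tried, in which it ran from 0.14 to 0.37.

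**Figure D1:**
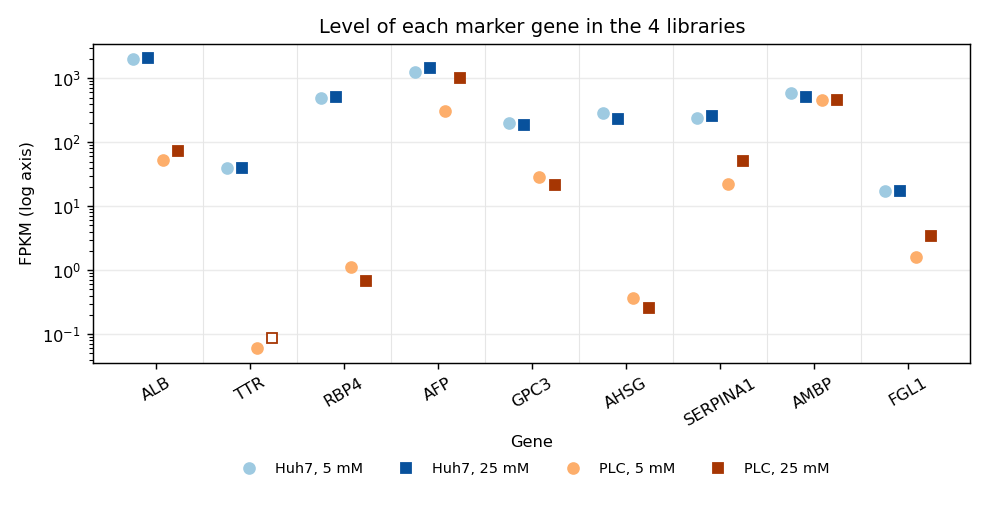
Level of each marker gene in the 4 libraries, in FPKM on a log axis; circles are 5 mM and squares 25 mM glucose, blue Huh7 and orange to brown PLC, and the open square is TTR in PLC at 25 mM, with 0 reads, drawn at the floor of 3 reads. TTR, RBP4 and AHSG lie at 1.13 FPKM or less in PLC, and AMBP lies between 450 and 585 FPKM in every library.

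Counted over the panel, 8 of 9 genes differed between the lines in edgeR's quasi-likelihood test with Benjamini-Hochberg adjustment over 23217 genes, and all 8 were higher in Huh7. Over all genes tested, 42.9% differed between the lines and 21.8% were higher in Huh7. TTR, with 4 reads and 0 reads in PLC, passed the filter on reads only through Huh7, so the direction of its call was largely fixed by it. With at least 10 counts required in every library, 6 of 7 genes of the panel were called, against 6340 of 16164 genes. The median difference of the panel was 2.95 on the log2 scale against 0.03 for all genes tested. By the rule of size, 7 of 9 genes were over 2-fold higher in Huh7 at both glucose concentrations, against 16.9% of 21804 genes that reached an FPKM above 0.5 in at least 1 library of each comparison. AFP passed at 5 mM only and AMBP at neither. The test has 1 residual degree of freedom, and each line is represented by cultures that differ in glucose. As the 9 genes were chosen with earlier results of these data known, these shares are a description only.

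**Figure D2:**
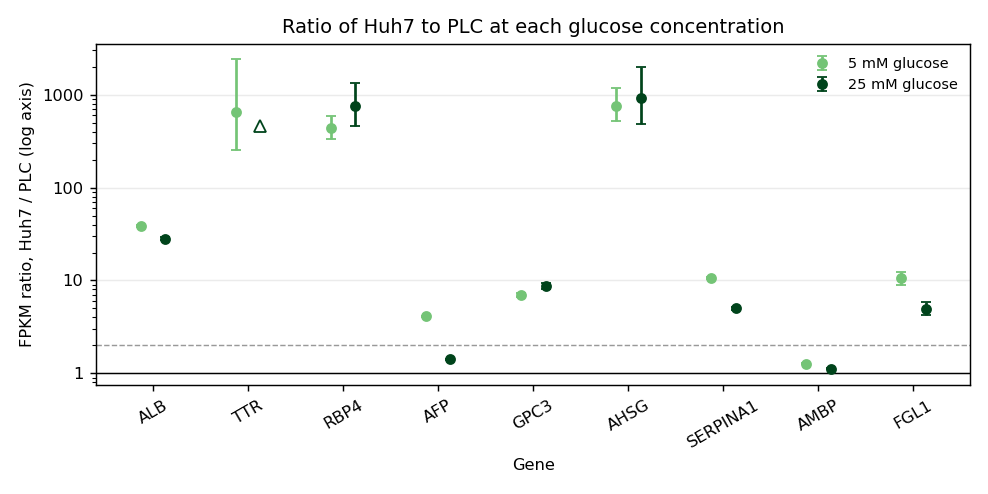
Ratio of the FPKM in Huh7 to that in PLC for each marker gene at 5 mM (light green) and 25 mM glucose (dark green), on a log axis with exact 95% counting intervals. The dashed line is a 2-fold difference. The open triangle is TTR at 25 mM, with its 0 reads in PLC set at the floor of 3 reads, and its exact interval starts at 376. All points lie above 1, from 1.12 for AMBP to 917 for AHSG.

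The study screened these lines for long noncoding RNAs that respond to glucose, and the same contrast is given here for the panel. In Huh7 cells, the panel differed little between 5 and 25 mM. The ratios of 25 mM to 5 mM were 1.01 for ALB, 1.004 for TTR, 1.05 for RBP4, 1.14 for AFP, 0.942 for GPC3, 0.816 for AHSG, 1.11 for SERPINA1, 0.865 for AMBP and 1.004 for FGL1. The values farthest from 1 were those of AHSG (interval 0.798 to 0.835), AMBP (0.850 to 0.880) and AFP (1.13 to 1.15), all inside the thresholds that the study used for long noncoding RNAs, a ratio over 1.5 or under 0.67 with FPKM over 0.5. None of the 9 passed in either direction, while 14.1% of 21864 genes passed in Huh7 with a higher level at 25 mM and 13.7% with a lower one. The values for ALB, TTR and FGL1 are so near 1 that they fell to its other side with TMM or DESeq2 scaling.

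In PLC cells the same genes spread over a wider range, and so did the whole table. Past the thresholds in either direction were 9409 of 21749 genes in PLC, against 6068 of 21864 in Huh7. AFP had 29691 reads at 5 mM and 51958 reads at 25 mM although the library at 25 mM was the smaller, and its ratio of 25 mM to 5 mM was 3.30 (3.25 to 3.35). This placed AFP at rank 213 of 11605 protein-coding genes ordered by this ratio. SERPINA1 had a ratio of 2.34 (2.24 to 2.46) and rank 584, and FGL1 had 2.13 (1.72 to 2.65) and rank 861. These 3 genes passed the thresholds with a higher level at 25 mM, out of the 7 of the panel with FPKM over 0.5, and 26.2% of 21749 genes passed in that direction in PLC.

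The other genes did not follow them. ALB, the neighbour of AFP, had a ratio of 1.38 (1.32 to 1.44) and stayed inside the thresholds. AMBP was at 0.980 (0.960 to 1.0003) and GPC3 at 0.754 (0.700 to 0.813). RBP4 alone passed as lower, at 0.604, but on 50 and 16 reads and with an interval from 0.321 to 1.08, and 17.0% of all genes passed in that direction. AHSG had 0.679 (0.279 to 1.504) at levels under 0.5 FPKM, and no ratio is given for TTR. The median ratio of all genes was 1.08 in PLC and 1.03 in Huh7. With TMM scaling, the PLC ratios were 3.04 for AFP, 2.15 for SERPINA1 and 1.91 for FGL1.

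**Figure D3:**
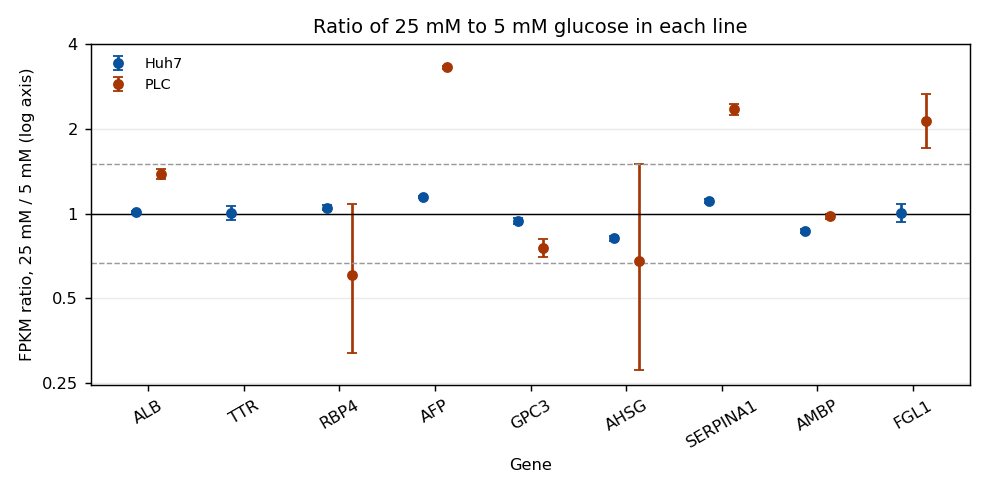
Ratio of the FPKM at 25 mM to that at 5 mM glucose for each marker gene in Huh7 (blue) and PLC (brown), on a log axis with exact 95% counting intervals; dashed lines mark 0.67 and 1.5, and TTR has no point in PLC, where it had 4 reads and 0 reads. All Huh7 points lie between the dashed lines, and AFP, SERPINA1 and FGL1 lie above them in PLC.

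The ratio of AFP in PLC was 2.89 times that in Huh7 (2.84 to 2.94), with 2.12 for SERPINA1 (2.01 to 2.22), 2.12 for FGL1 (1.70 to 2.66) and 1.36 for ALB (1.31 to 1.42). These intervals again hold counting error alone. With 1 library per condition, the difference between the lines in their response to glucose was not tested. In the additive fit, edgeR's test of a glucose change common to the lines called none of the 9 genes, against 0.379% of all genes tested (88 of 23217). Before adjustment 2 of them passed 0.05. AFP had a log2 change of 0.88 (SE 0.26, adjusted p = 0.233) and SERPINA1 one of 0.61 (SE 0.23, adjusted p = 0.448). AFP passed in 1 of the 8 settings tried, the fit without a filter on low counts, with an adjusted p of 0.000382, and its adjusted p was at least 0.233 in the others. DESeq2 and limma voom also called none of the 9.

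The make-up of the panel differed more between the lines than between glucose concentrations in Huh7. The 9 genes held 1.53% and 1.58% of all counted reads in Huh7 cells at 5 and 25 mM, and 0.223% and 0.467% in PLC cells. ALB made up 39.4% and 39.0% of their summed FPKM in Huh7, but 6.02% and 4.49% in PLC. AMBP was the largest part of the sum in PLC at 5 mM, with 52.7%, and AFP at 25 mM, with 62.8%. The ratio of AFP to ALB was 0.623 and 0.703 in Huh7 cells at 5 and 25 mM, and 5.84 and 14.0 in PLC cells. It was 1.13-fold higher at 25 mM than at 5 mM in Huh7 and 2.40-fold higher in PLC.

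**Figure D4:**
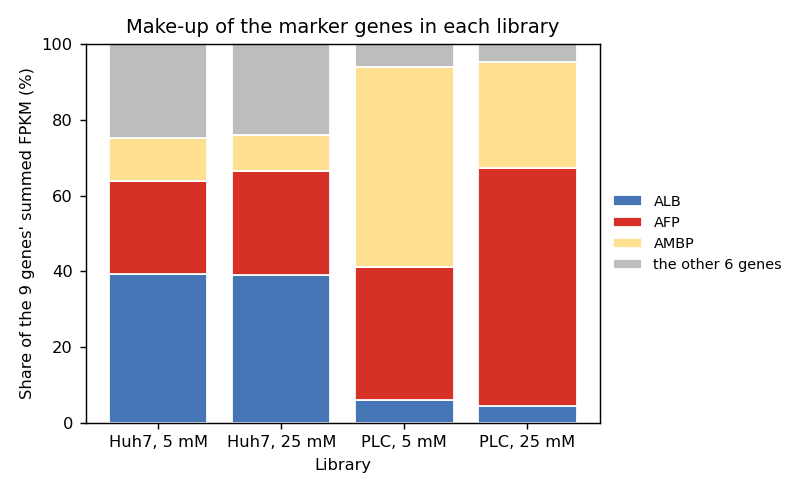
Share of each gene in the summed FPKM of the 9 marker genes, in percent, as 1 stacked bar per library with ALB in blue, AFP in red, AMBP in yellow and the other 6 genes in grey. ALB and AFP together make up 63.9% and 66.4% in Huh7 at 5 and 25 mM, and in PLC the part of AFP goes from 35.1% to 62.8% while that of AMBP goes from 52.7% to 27.9%.

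Genes that lie in the same chromosome regions as members, not all of them directly beside one, were next considered, as a list of 15. Of the 8 with enough reads to be tested, 7 were higher in Huh7 and none was lower, and none passed the test for glucose. Over all genes tested, 21.8% were higher in Huh7 and 0.379% passed for glucose. Some of the 8 passed the filter on reads only through Huh7, so the direction of their calls was largely fixed by it. SERPINA4, for example, had 74 and 169 reads in Huh7 and 0 reads in each PLC library. GC, the vitamin D carrier, is on chromosome 4 like ALB but not beside it, ending at base 71804041 where ALB starts at 73397114. Its levels were 36.7 and 60.4 FPKM in Huh7 and 0.0946 and 0.297 FPKM in PLC (log2 difference 8.06, SE 0.37). AFM, the next listed gene after AFP, had 7 and 26 reads in Huh7 and 0 reads in each PLC library, and was not tested. KNG1, the kininogen gene near AHSG, had 5.47 and 7.35 FPKM in Huh7 against 0.359 and 0.541 FPKM in PLC. In the cluster of SERPINA1 on chromosome 14, SERPINA6 (the cortisol carrier) had 12.6 and 12.4 FPKM in Huh7 and 10.9 and 56.4 FPKM in PLC, the only neighbour tested that was not called between the lines. Its ratio of 25 mM to 5 mM in PLC was 5.17, on 610 and 1673 reads. SERPINA10 and SERPINA5 had ratios of 3.60 and 4.18 in PLC, on 65 and 124 and on 14 and 31 reads. In Huh7 the 3 ratios were 0.980, 1.05 and 1.14.

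Partners of the 9 proteins, listed with their relatives, were mixed, with 6 higher in Huh7, 7 lower and 5 not called of 18 tested. Over all genes tested, 42.9% were called between the lines and 21.8% were higher in Huh7. Some of the 18, such as STRA6 with 0 reads in each Huh7 library, passed the filter on reads through a single line. The direction of their calls was largely fixed by it. Of the listed ITIH genes, the family of bikunin's heavy chains, ITIH2 was the highest. Its levels were 183 and 224 FPKM in Huh7 and 12.6 and 31.5 FPKM in PLC (log2 difference 3.34, SE 0.26). ITIH5 had 2 reads in each Huh7 library and 6.49 and 4.23 FPKM in PLC. The fibrinogen chains were high in both lines. FGA had 430 and 472 FPKM in Huh7 and 229 and 348 FPKM in PLC, and FGB had 444 and 510 against 116 and 228 FPKM. LAG3, the receptor of FGL1, stayed under 0.5 FPKM in every library. Among the other glypicans, GPC1, GPC5 and GPC6 were lower in Huh7 than in PLC, the opposite of GPC3, with GPC6 at 15.2 and 10.0 FPKM in Huh7 and 35.3 and 26.98 FPKM in PLC.

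Of 20 other proteins that hepatocytes secrete, 19 were tested, with 13 higher in Huh7, 5 lower and 1 not called. The shares over all genes tested were 42.9% called and 21.8% higher in Huh7. Some of the 19 passed the filter on reads through a single line, so the direction of their calls was largely fixed by it. ORM1 and ORM2, for example, each had 2 reads at 5 mM and 0 reads at 25 mM in PLC. APOB, the protein of very low density lipoprotein, had 1135 and 1008 FPKM in Huh7 and 220 and 231 FPKM in PLC. APOA2, an HDL protein, had 1054 and 570 FPKM in Huh7 and 3.08 and 17.1 FPKM in PLC. VTN (vitronectin), C3 (complement), CP (ceruloplasmin), LRG1 and A1BG were the 5 that were higher in PLC. LRG1, a glycoprotein of the acute phase, had 1.69 FPKM at 5 mM and 25.4 FPKM at 25 mM in PLC (138 and 1100 reads). That is a ratio of 15.04, against 1.25 in Huh7. Its Huh7 levels were 1.44 and 1.80 FPKM, so the lines were close at 5 mM and the call rests on the PLC library at 25 mM. None of the 19 passed the test for a shared glucose change, which only 0.379% of all genes tested passed.

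Of 18 other oncofetal and liver tumour genes, all were tested, with 11 higher in Huh7, 4 lower and 3 not called. Among all genes tested, 42.9% differed between the lines and 21.8% were higher in Huh7. IGF2, DLK1, KRT19, SPINK1, EPCAM and DKK1 had 6 reads or fewer in each PLC library and passed the filter on reads only through Huh7. H19 passed it only through PLC. The direction of these calls was largely fixed by the filter. None of the 18 passed for glucose, against 0.379% of all genes tested. PEG10, an imprinted gene, had the highest levels in Huh7, 344 and 425 FPKM, against 35.5 and 46.4 FPKM in PLC. SPP1 (osteopontin) had the highest in PLC, 454 and 402 FPKM, against 5.68 and 3.59 FPKM in Huh7. H19, an imprinted fetal RNA, was also lower in Huh7, with 4 reads in each Huh7 library and 37.8 and 77.6 FPKM in PLC. TSPAN8 and SALL4 were the other genes lower in Huh7.

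Transcription of ALB and AFP depends on a set of liver factors, of which HNF4A, the FOXA proteins and CEBPA are the best known, and ZHX2 and ZBTB20 are known to repress AFP after birth. Of 13 such genes, 5 were higher in Huh7, 2 lower and 6 not called. For all genes tested the shares were 42.9% called and 21.8% higher in Huh7. FOXA2 had 40.2 and 38.6 FPKM in Huh7 and 4 reads and 0 reads in PLC. It passed the filter on reads only through Huh7, so the direction of its call was largely fixed by the filter. CEBPA had 68.5 and 75.9 FPKM in Huh7 and 3.54 and 3.02 FPKM in PLC (log2 difference 4.45, SE 0.27, adjusted p = 3.39e-08). HNF4A was not called, with 29.0 and 31.1 FPKM in Huh7 and 35.0 and 38.5 FPKM in PLC (log2 difference -0.30, SE 0.20, adjusted p = 0.263).

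CEBPB also binds the ALB promoter and responds to cytokines and stress. It was the gene of this set called for glucose, 1 of 13, against 0.379% of all genes tested. It fell by 1.44 on the log2 scale from 5 to 25 mM (SE 0.23, adjusted p = 0.0192), from 64.7 to 29.3 FPKM in Huh7 and from 113 to 37.7 FPKM in PLC. It passed in 5 of the 8 settings. ZHX2 had 17.8 to 26.3 FPKM in the 4 libraries and was not called for either term, and ZBTB20 was lower in Huh7, at 3.19 and 3.30 FPKM against 4.90 and 5.52 FPKM. Whether any of these factors bears on the levels of the 9 genes was not tested.

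**Figure D5:**
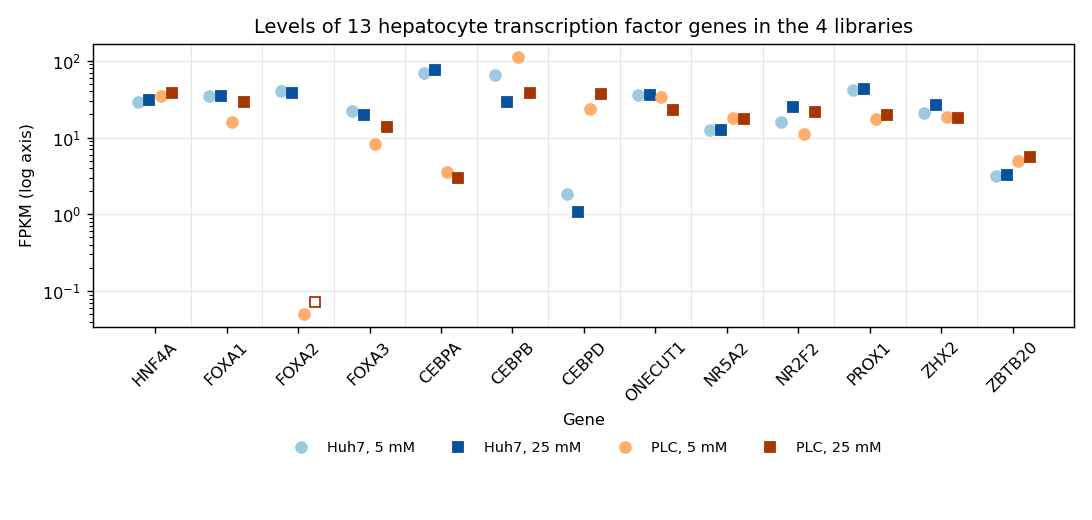
Level of 13 liver transcription factor genes in the 4 libraries, in FPKM on a log axis, with symbols as in the plot of the marker genes; the open square is FOXA2 in PLC at 25 mM, with 0 reads, drawn at the floor of 3 reads. FOXA2 and CEBPA lie lower in PLC, CEBPD lies higher there, and HNF4A lies between 29.0 and 38.5 FPKM in every library.

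The label of hepatocellular carcinoma cells was set against marker genes. In Huh7 all 9 genes were detected at 17.1 FPKM or more. In PLC, AMBP, AFP, ALB, SERPINA1 and GPC3 were above 20 FPKM, FGL1 and RBP4 were low, and TTR and AHSG were under 0.5 FPKM. Of 19 markers of stroma, endothelium, leukocytes and cholangiocytes, 13 were at 0.5 FPKM or less in every library, among them PTPRC, CD3E, KDR and VWF. Their summed level was 75.4 and 80.8 FPKM in Huh7 and 18.9 and 30.2 FPKM in PLC. In Huh7 the highest were LYZ (33.2 and 35.0 FPKM in Huh7, 3.54 and 10.8 FPKM in PLC) and SOX9 (32.3 and 36.8, then 7.31 and 5.75 FPKM), with LUM at 6.31 and 5.40 FPKM in Huh7 and 0 reads in PLC. In PLC at 25 mM the highest was CFTR, the chloride channel of bile duct cells, with 6.98 and 11.6 FPKM at 5 and 25 mM against 0.593 and 0.428 FPKM in Huh7. Of the 10 tested, 6 were higher in Huh7, 2 were lower (CFTR and the collagen gene COL3A1) and 2 were not called. By comparison, 42.9% of all genes tested were called and 21.8% were higher in Huh7. Some of the 10, such as LUM, passed the filter on reads only through Huh7, so the direction of their calls was largely fixed by it. The part of these marker genes in the difference between lines was not tested.

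The genes with patterns most like those of the 9 were sought by the Euclidean distance of log2(FPKM + 0.1) centred over the 4 libraries. The search covered 8271 protein-coding genes with FPKM over 5 in at least 1 library, a number that includes the 9, which were then left out. The nearest was GAS2 for ALB (distance 0.17), MAL2 for TTR (0.05), NR1H4, the bile acid receptor FXR, for RBP4 (0.36) and ORM1, an acute phase protein gene that may share reads with its near copy ORM2, for AHSG (0.39). For AFP it was FAM117B (0.15), for GPC3 PCSK6 (0.07), for SERPINA1 COL27A1 (0.25), for AMBP RABEP1 (0.03) and for FGL1 NOL4L (0.13). FAM117B had 6.27 and 7.14 FPKM in Huh7 and 1.61 and 4.81 FPKM in PLC. Within the panel, SERPINA1 and FGL1 were the closest pair (0.18), closer than COL27A1 to SERPINA1, followed by RBP4 and AHSG (0.42). With 4 libraries, many genes share a pattern by their level in a single line. MAL2, NR1H4 and ORM1 were under 0.1 FPKM in both PLC libraries, so the added 0.1 weighs on their distances.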

How the data were processed

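Total RNA of 4 cultures was depleted of rRNA and made into directional libraries by the authors. The deposited values are raw read counts per gene; the submitters' processing notes name HISAT2, featureCounts and hg38, and their versions, the annotation release and the strand setting are not given in the sources used here. If strand was not used in counting, reads of overlapping antisense genes would be added to a gene. Of 59657 lines of the table, 59652 were used, and 5 lines of a broken ANK2 entry were left out. Groups came from the labels.

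FPKM was calculated from each count, the gene length in the table and the library total. The ratios compared with thresholds had 0.1 added to both FPKM, and printed ratios and their exact binomial (Clopper-Pearson) 95% intervals had nothing added. A fold against 3 reads or fewer is a bound. Counts were tested with edgeR 4.0.16 in R 4.3.3 (quasi-likelihood, line and glucose as terms, filterByExpr, TMM, Benjamini-Hochberg, adjusted p under 0.05), which was tested on simulated data. SE is the log2 change divided by the root of its F statistic. DESeq2 1.42.0, limma voom 3.58.1, other scalings, filters and thresholds were alternatives. Promoter windows came from RefSeq on GRCh38.p14, and exons from GENCODE on the same genome.

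The 9 genes and the lists were chosen with earlier results of these data known. All 9 are named. Of the lists, examples are named from the genes of highest FPKM or an adjusted p under 0.05, and not all such genes are named. Also named are the nearest gene of each by distance, and SERPINA6, SERPINA10, SERPINA5, LRG1, LAG3, HNF4A, ZHX2 and markers at 0.5 FPKM or less, which were picked after their values were seen. Some genes of the transcription factor list and a promoter motif are not reported here.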

Additional observations from a re-analysis of the deposited data

Results flagged for a closer look

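RBP4 lay on opposite sides of 1 in the lines, with a ratio of 25 mM to 5 mM of 1.05 in Huh7 and of 0.604 in PLC. The PLC value rests on 50 and 16 reads and its interval includes 1 (0.321 to 1.08). Each line has 1 library per glucose concentration, so the difference was not tested.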

How the results depend on the processing

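Of all genes tested, 9969 of 23217 were called between the lines. In the alternatives this ran from 10305 of 38660 without a filter on low counts to 10597 of 23217 with limma voom. The number of the 9 genes called between the lines was 8, and 6 to 8 in the alternatives. AHSG and TTR were not tested when at least 10 counts were required in every library, which made the number 6. In a model without glucose, chosen after seeing the data and fitted without each library in turn, it was 7 to 8; there the line left with 1 library is assumed to vary like the other. The number of the 9 called for a shared glucose change was 0, and 1 without a filter on low counts (AFP). Over all genes these were 88 of 23217 and 526 of 38660. Without the line as a term, the log2 glucose changes of ALB and RBP4 reversed to -0.013 and 0.029, and neither was called. The counts of the 9 past the ratio thresholds were 0 in Huh7 in all settings and 4 in PLC, or 3 with 1 added or with ratios over 2 or under 0.5, when RBP4 drops out. Of all 21749 genes compared in PLC, 9409 passed, with 5982 when 1 was added and 5253 with the stricter ratios. In Huh7, 6068 of 21864 passed, with 3092 and 3066 in those 2 settings. Over 2-fold between lines at both concentrations were 7 of the 9 genes, or 5 of the 7 with FPKM over 0.5 in both libraries. Over all genes, in either direction, these were 7041 of 21804 and 2679 of 14910. Leaving out a library from the model with line and glucose leaves no residual degree of freedom, and for glucose without the line it would compare the lines, so values within each line stand in its place. The labels give no replicate numbers to pair, and the cell line is the block of the glucose test, whose values without it are those of the model without the line. Depth limits RBP4, AHSG and TTR in PLC, which have 50 reads or fewer.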
